A study of Mus musculus with 2 samples.

Results

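The genes described here are 43 interferon-induced antiviral and GTPase genes, taken by symbol from the 41214 genes of the deposited mouse table. All 43 symbols were in the table, each in 1 row, and all 43 had at least 1 read in 1 of the 2 libraries. RNA came from germinal centre B cells of C57BL/6 mice, sorted from spleen as B220+ Fas+ GL7+ CD138- cells on day 10 after an intravenous injection of sheep red blood cells. One library is labelled Cbl-/-Cblb-/-, that is, as lacking the ubiquitin ligase genes Cbl and Cblb, and 1 is labelled wild type; below they are the mutant-labelled and the wild-type-labelled library. Immunization, strain and sort were the same for both. The labels give neither the age of the mice, nor the number pooled, nor the exons removed in the mutant alleles. With 1 library a group no test was possible, so no difference below has a replicate check.

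Interferons signal through paired receptors and the kinases JAK1, JAK2 and TYK2 to STAT proteins. Type I interferon drives a complex with STAT2 and IRF9 that binds interferon-stimulated response elements, and interferon gamma acts through gamma-activated sites. The induced genes encode proteins that sense, bind or degrade viral nucleic acid, tag proteins with ISG15, or attack the membranes around intracellular pathogens as large GTPases. B cells carry both receptor types and keep some of these genes on without infection.

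Some of the promoters hold the core of the interferon-stimulated response element. Of the 43 genes, 31 had a RefSeq promoter (GRCm38.p6), and the 250 bases before the start were searched on both strands. The core of the response element, GAAA and GAAA with 2 bases between them, was found in 14 of the 31 (45.2%) and in 3.46% of all 27025 genes in that table. The gamma-activated site, TTCNNNGAA, was in 8 of the 31 (25.8%) and in 8.13% of all genes, and 5 of the 31 held both, against 0.459% of all. The 5 were Bst2, Gbp7, Igtp, Irgm2 and Oas1a. Overlapping matches were counted, and a match of letters is a description, not a binding site. The windows below show 3 arrangements: repeated cores (Isg15, Ifit1, Oas1a), a single core (Gbp7), and a core beside or overlapping a gamma-activated site (Bst2, Igtp, Irgm2). Capitals mark response element cores in the first 4 lines, and cores together with the gamma-activated site in the last 3; each is written 5′ to 3′ on the strand of its gene.

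Isg15, chr4:156200863-156200908, minus strand: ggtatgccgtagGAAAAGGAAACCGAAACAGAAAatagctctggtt
Ifit1, chr19:34640773-34640825, plus strand: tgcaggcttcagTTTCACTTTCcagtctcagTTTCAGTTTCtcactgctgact
Oas1a, chr5:120907526-120907557, minus strand: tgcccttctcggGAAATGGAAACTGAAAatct
Gbp7, chr3:142530271-142530304, plus strand: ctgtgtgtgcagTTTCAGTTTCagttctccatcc
Bst2, chr8:71537575-71537620, minus strand: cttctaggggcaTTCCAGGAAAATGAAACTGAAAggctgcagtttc
Igtp, chr11:58199499-58199543, plus strand: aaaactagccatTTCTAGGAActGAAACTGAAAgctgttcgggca
Irgm2, chr11:58214890-58214934, plus strand: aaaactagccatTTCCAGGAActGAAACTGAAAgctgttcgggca

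Isg15 held 3 overlapping cores, the first 78 bases before its start, and Bst2 held 2 cores, 1 of them overlapping the site TTCCAGGAA. The windows of the neighbouring GTPase genes Igtp and Irgm2 differed at 1 of 45 bases, T16C, written as the base of Igtp, the position from the 5′ end of the window, and the base of Irgm2. Aligned on the core without gaps, 134 of 220 bases before their starts (60.9%) were identical. The RefSeq start of Irgm2 lies inside the longer gene that GENCODE M21 annotates.

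**Figure D1:**
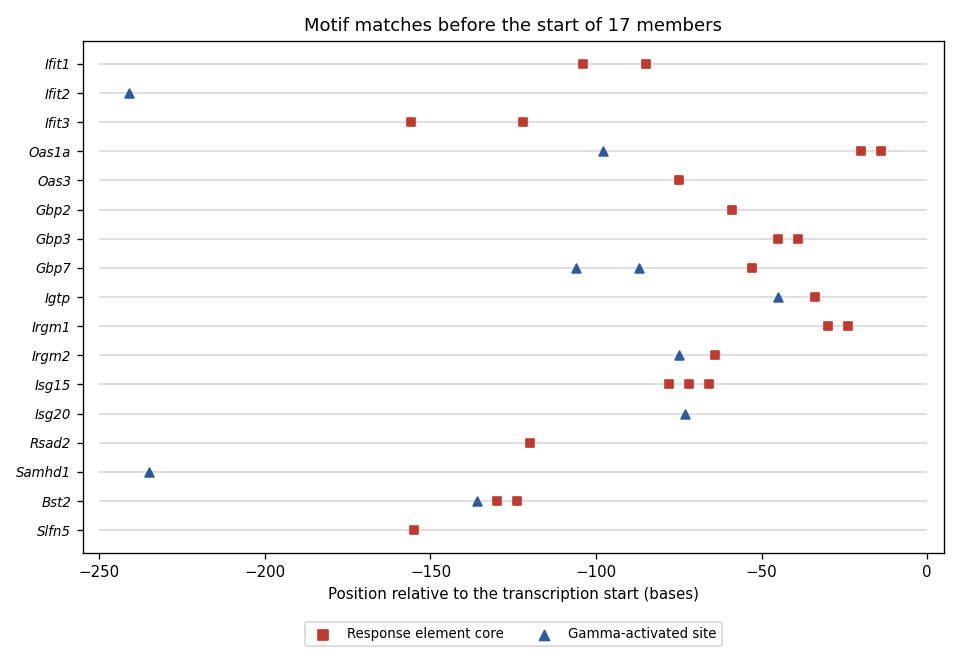
Positions of response element cores (red squares) and gamma-activated sites (blue triangles) in the 250 bases before the start of the 17 members that held either; the x axis is the first base of the match relative to the start, in bases. All cores lie between 14 and 156 bases before the start.

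The mutant-labelled library held 38223328 reads assigned to genes and the wild-type-labelled one 26749540, and the values are the authors' normalized reads. The targeted genes went against the label: Cbl stood at 1183 normalized reads under the mutant label and 169 under the wild-type label, and Cblb 2839 and 1001. Adjusted for gene length as described below, their log2 ratios of 2.8 and 1.5 became 2.34 and 0.76, so only Cbl stayed past 2-fold. Directions are therefore between labelled libraries, not genotypes. All 9 germinal centre B cell markers listed had at least 642 normalized reads in both libraries. Of 12 macrophage markers, 11 were in the table and 7 reached 100 normalized reads; 6 were higher and 5 lower in the mutant-labelled library, and none was at 0 in both. Their summed level was 1736 against 1959 normalized reads, with single markers at 2.1 to 352 and 5.72 to 755. In normalized reads, Mrc1 (155 against 30) and Vcam1 (329 against 95.9) were higher, C1qa (128 against 373) and Cd68 (316 against 755) lower. Of the plasmacytoid dendritic cell markers only Pacsin1 (2195 and 2577) passed 18.6 normalized reads. As myeloid cells also express these interferon-induced genes, fewer or more such cells and less or more RNA per B cell cannot be told apart, and their part in the differences below was not tested.

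The 43 genes spanned a wide range of levels. They took 0.283% of reads in the mutant-labelled library and 0.285% in the wild-type-labelled one, and Ly6e alone made up 32.6% and 62.7% of these. In their higher library 33 genes reached a floor of 100 normalized reads: 23 in both libraries, 9 through the mutant-labelled library alone and 1, Oas1a, through the wild-type-labelled one alone. The 9 had to differ or lie near the floor, so counts over the 33 only describe them. Over all 43, 31 had a positive log2 ratio and 12 a negative one (mutant-labelled over wild-type-labelled library, each with 1 added). Of all 19179 genes with a read, 10561 had a positive ratio and 8618 a negative one. Among the 33, 14 (42.4%) were 2-fold or more higher in the mutant-labelled library and 5 (15.2%) as much lower, with a median log2 ratio of 0.78. Of all 10443 genes past the floor, 27.8% were at least 2-fold higher and 23.3% lower, with a median of 0.15. The 95% interval of the ratio, exact and conditional on the reads of both libraries, covers counting error only; it lay wholly past 2-fold for 12 of the 33 upward and 5 downward, against 23.6% and 20.5% of all genes.

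**Figure D2:**
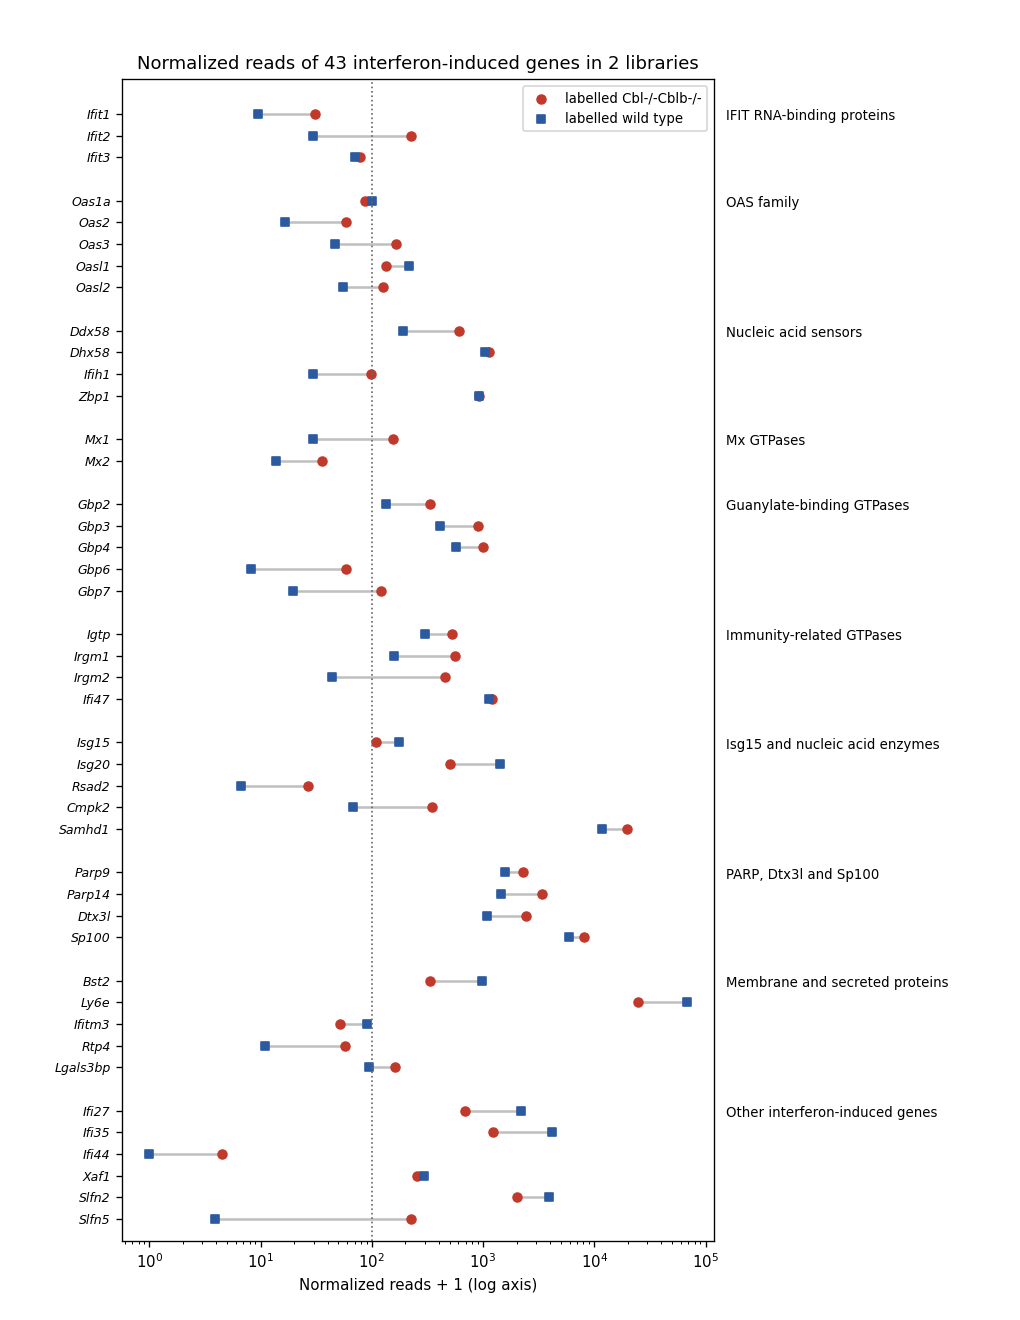
Normalized reads plus 1 (log x axis) of each of the 43 genes in the library labelled Cbl-/-Cblb-/- (red circles) and that labelled wild type (blue squares), 1 library each, in rows grouped by role; the dotted line is the floor of 100. Levels run from Ifi44, with 0 reads in the library labelled wild type, to Ly6e, with 24660 and 68317 normalized reads.

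All ratios have to be read against gene length, which the libraries differ by. Among genes past the floor the median log2 ratio was -1.68 in the shortest of 8 length groups (36 to 1396 bases) and 1.35 in the longest (7609 to 84395 bases). A fit on length took up 23.7% of the variance, and the length-adjusted log2 ratios given below are residuals of that fit. After adjustment 12 of the 33 genes (36.4%) were 2-fold or more higher and 2 (6.06%), Ly6e and Ifi35, as much lower, with a median of 0.46. Of all genes 18.1% were then higher and 21.3% lower, with a median of -0.07. In the 2 groups of genes up to 2185 bases none of 8 members was higher and 4 were lower, 1 of 2 and 3 of 6, where 67.8% and 45.4% of all genes were lower and 10.8% and 8.97% higher. In length groups 4 and 5 (2895 to 4510 bases), where the medians of all genes were 0.07 and 0.36, 7 of 10 members were at least 2-fold higher and 1, Ly6e, lower. Of all genes of those groups 21.1% and 24.8% were higher, and 209 and 146 of 1305 (11.2% for the latter) were lower. Of the 7, all but Gbp3 (Mx1, Irgm2, Cmpk2, Ifit2, Oasl2 and Slfn5) reached the floor only through the mutant-labelled library. The same holds for Oas3 and Gbp7, and all of these are among the 12 higher after adjustment. Such genes had to differ or lie near the floor, so the counts only describe the members. In groups 3, 6, 7 and 8 the members higher were 1 of 4, 2 of 5, 3 of 4 and 1 of 2, against 13.4%, 35.2%, 45.4% and 62.5% of all genes, and none was lower, against 27.4%, 9.5%, 6.28% and 2.53%. Against the median of its own length group 1 member, Ly6e, was 2-fold or more lower, against 18.2% of all genes.

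**Figure D3:**
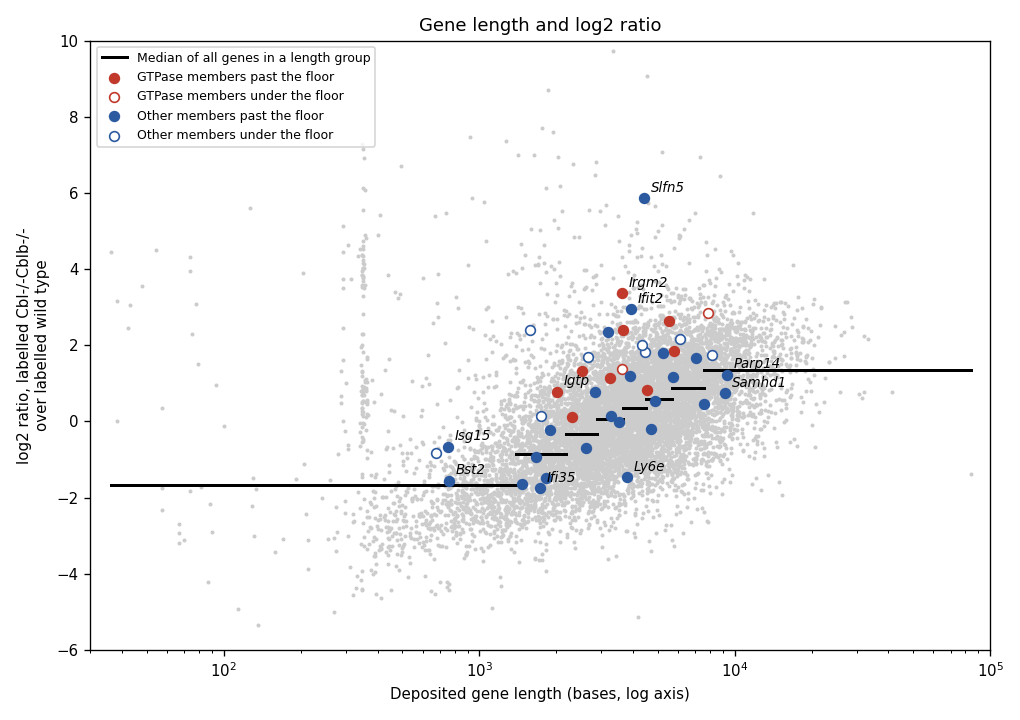
log2 ratio (y axis) against deposited gene length (bases, log x axis) for all 10443 genes past the floor (grey), the medians of 8 length groups (black bars) and the 43 members, GTPases in red and others in blue, open where under the floor. Bst2 (764 bases) lies near the bar of its length group and Isg15 (756 bases) above it, and Irgm2 (3621 bases) and Slfn5 (4427 bases) lie above and Ly6e (3784 bases) below.

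All 11 GTPases were above 0 in log2 ratio, against 10561 of all 19179 genes with a read, although Ifi47 turned to -0.04 once the median over all genes was subtracted. Of the 9 past the floor, 6 were at least 2-fold higher and none lower, against 27.8% and 23.3% of all genes. After adjustment for length 7 were higher and none lower, against 18.1% and 21.3%. Of the 9, Irgm2, Gbp7 and Mx1 reached the floor only through the mutant-labelled library. The immunity-related GTPases act at the vacuoles of intracellular parasites, and in the mouse Irgm1, Irgm2 and Igtp (Irgm3) regulate the effector members of the family. Irgm2 (chromosome 11, 58199618 to 58222782, plus strand of GRCm38) had 451 normalized reads in the mutant-labelled library and 42.9 in the wild-type-labelled one, from 645 and 30 reads. That was 10.5-fold higher (7.29 to 15.7), and the log2 ratio of 3.36 was 3.28 after adjustment. Its neighbour Igtp (58199556 to 58207591, same strand) had 520 and 302, which was 1.72-fold higher (1.48 to 2.02). The log2 ratio of Igtp, 0.78, became 1.25 after adjustment and 1.63 against its length group, both past 2-fold. The intervals of Irgm2 and Igtp do not overlap, and a link of this difference to their promoter sequences was not tested. The annotated genes overlap and share 162 exon bases, and 12.3% of the 50-base windows of the longest Igtp transcript also occur in another gene, mainly Irgm2. Irgm1, on the same chromosome at 48861968 to 48871683, had 559 and 156 normalized reads, 3.59-fold higher (2.93 to 4.42). Its log2 ratio of 1.84 became 1.21 after adjustment for its 5810 bases and, at 0.97, was no longer past 2-fold against its length group. Ifi47, an effector member of the family, stood at 1214 and 1127, within 2-fold (ratio 1.08, 0.989 to 1.17), and was the most abundant of the 4 per length, at 524 and 487 normalized reads per kilobase.

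Guanylate-binding proteins are larger GTPases that coat and disrupt pathogen membranes. The 5 Gbp members had log2 ratios above 0 under each scaling tried. Gbp7 had 121 normalized reads against 18.6, 6.5-fold higher (3.7 to 12.5) in the mutant-labelled library, and its log2 ratio of 2.64 became 2.06 after adjustment. Gbp2 had 331 against 132, 2.51-fold higher (2.01 to 3.18), and its log2 ratio of 1.32 was 1.6 after adjustment. Gbp3 (900 and 412) was 2.18-fold higher (1.92 to 2.49), and Gbp4 (1431 and 396 reads) 1.77-fold higher (1.58 to 1.98), or 0.49 on the log2 scale after adjustment. The intervals of Gbp2 and Gbp3 overlap, and that of Gbp7, which reached the floor only through the mutant-labelled library, lies above both. The row named Gbp6 had 82 reads against 5, under the floor, an 8.01-fold ratio (3.3 to 25.3). Its identifier carries the name Gm43302 in GENCODE M21, and 81.6% of its exon bases there overlap Gbp6 or Gbp10, so its reads are uncertain in origin. Windows of 50 bases shared with other genes made up 12.8% of both Gbp4 and Gbp7.

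The Mx proteins are dynamin-like GTPases that block virus replication, and C57BL/6 mice carry a defective Mx1 allele. Mx1 had 154 normalized reads in the mutant-labelled library and 28.6 in the wild-type-labelled one, 5.37-fold higher (3.4 to 8.97), with a log2 ratio of 2.39 that was 2.3 after adjustment. Mx2, which the deposited table lists as a polymorphic pseudogene, was under the floor with 50 reads against 9, a 2.71-fold ratio (1.32 to 6.28).

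**Figure D4:**
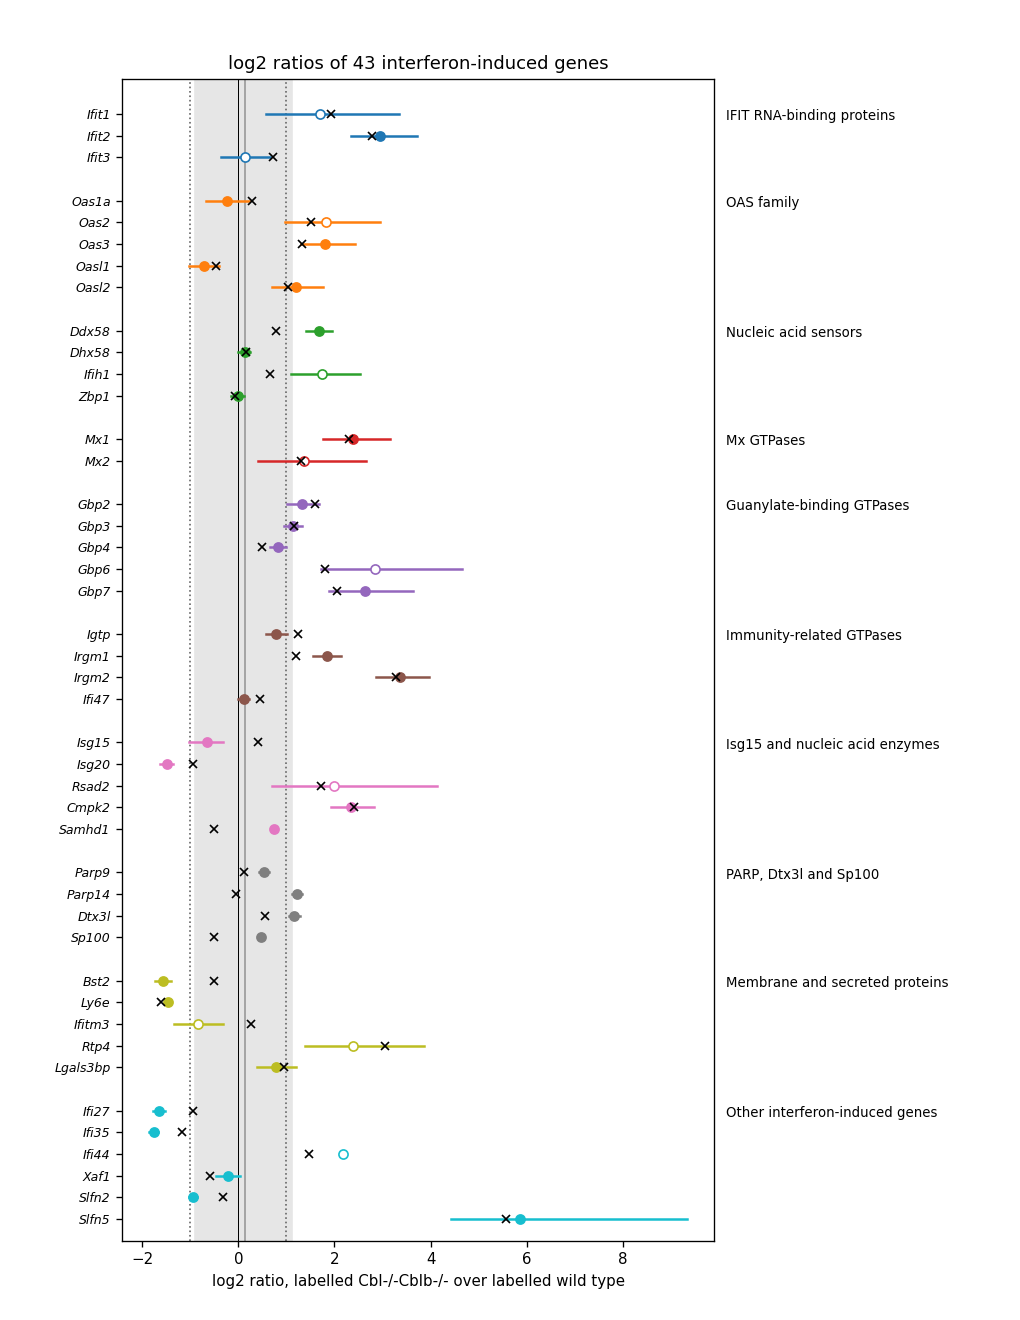
log2 ratio of each of the 43 genes by role (circles, filled when past the floor) with its 95% counting interval (bars; none for Ifi44, which had 0 reads in the library labelled wild type) and the length-adjusted value (crosses). Grey marks the middle 50% of all genes past the floor, with their median as a grey line, and dotted lines mark 2-fold. All GTPases lie to the right of 0, and Isg20, Bst2, Ly6e, Ifi27 and Ifi35 left of the lower dotted line.

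The IFIT proteins bind viral RNA ends and halt its translation. Ifit2 (chromosome 19, 34550694 to 34576419, plus strand) had 226 normalized reads against 28.6, 7.91-fold higher (5.04 to 13.1) in the mutant-labelled library. Ifit1, with 43 reads against 6, had a 3.5-fold ratio (1.48 to 10.1) under the floor. Ifit3 had 77.6 and 70.1 normalized reads, whose ratio of 1.11 (0.784 to 1.58) includes 1, but 51.2% of its windows are shared, mainly with its copy Ifit3b. The 3 genes lie in 1 cluster. The intervals of Ifit2 and Ifit3 do not overlap, but that of Ifit1 overlaps both.

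The OAS enzymes make 2′-5′ oligoadenylates that activate RNase L on double-stranded RNA, and OASL proteins are their relatives. Oas3 had 164 normalized reads against 45.8, 3.57-fold higher (2.46 to 5.34), and Oasl2 had 126 against 54.4, 2.31-fold higher (1.62 to 3.38). Their log2 ratios of 1.81 and 1.2 became 1.32 and 1.04 after adjustment, and Oasl2 was at 0.83 against its length group, within 2-fold. Oas2, under the floor, had 58 against 15.7 and a 3.69-fold ratio (1.96 to 7.67). Oasl1, known in the mouse as a brake on Irf7 translation, went the other way, with 132 against 217, which was 1.65-fold lower (1.32 to 2.05), and it was the most abundant of the 5 per length. For Oas1a (122 and 70 reads) the interval of the ratio, 0.63 to 1.16, includes 1, its sign turned when scaled to total reads, and 57.6% of its windows are shared, mainly with Oas1g and Oas1b.

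Cytosolic sensors of nucleic acid were unequal. Ddx58, which encodes RIG-I, had 609 normalized reads against 190, 3.2-fold higher (2.66 to 3.87), and as a gene of 7050 bases its log2 ratio of 1.67 became 0.79 after adjustment. Ifih1, which encodes MDA5, had 97.9 against 28.6, just under the floor, and 1.74 on the log2 scale became 0.65. The more abundant Dhx58, which encodes the regulator LGP2, was at 1130 and 1034, and Zbp1, the sensor of Z-form nucleic acid, at 912 and 920. Both lay within 10% of equal between libraries, and their log2 ratios of 0.13 and -0.01 change sign with the scaling.

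Isg15, the ubiquitin-like modifier whose promoter holds 3 cores, was at 109 normalized reads against 173, 1.59-fold lower (1.24 to 2.03) in the mutant-labelled library. At 756 bases it lies in the shortest length group, and its log2 ratio of -0.66 became 0.4 after adjustment. Isg20, an exonuclease of RNA, had 503 against 1418, 2.82-fold lower (2.56 to 3.11), with -1.49 becoming -0.95. Cmpk2, a mitochondrial nucleotide kinase, and Rsad2, which encodes viperin, are neighbours on chromosome 12 and were both higher. Cmpk2 had 347 against 67.2 normalized reads, 5.17-fold (3.83 to 7.12), and Rsad2, under the floor, 37 reads against 4, 4.52-fold (1.62 to 17.5). Samhd1, which hydrolyses deoxynucleotides, was abundant at 19678 and 11753. It was 1.67-fold higher (1.63 to 1.72), but its log2 ratio of 0.74 turned to -0.51 after adjustment for its 9150 bases.

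The PARP9 and DTX3L proteins form an ADP-ribosylating ubiquitin ligase, PARP14 is a related enzyme, and SP100 is a nuclear body protein. All 4 genes had log2 ratios of 0.47 to 1.22, and these are long genes of 4872 to 9306 bases. Parp14 (3379 and 1448 normalized reads) was 2.33-fold higher (2.18 to 2.5), and its 1.22 on the log2 scale turned to -0.05 after adjustment. Dtx3l (2432 and 1089) was 2.23-fold higher (2.07 to 2.42) and kept 0.55. Parp9 (2287 and 1585) stood at 1.44-fold (1.35 to 1.55), or 0.12 on the log2 scale after adjustment. Parp9 and Dtx3l overlap head to head on chromosome 16 by 458 exon bases on opposite strands, and with the strand setting of the counting not known here, reads in that stretch cannot be assigned. Sp100 (8122 and 5873) was at 0.47 and turned to -0.51.

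Among membrane and secreted proteins the abundant members were lower. Ly6e, a surface protein that limits coronavirus entry, was the highest of all 43 per length in both libraries, with 6517 and 18054 normalized reads per kilobase. It had 24660 against 68317 normalized reads, 2.77-fold lower (2.73 to 2.81) in the mutant-labelled library, and its log2 ratio of -1.47 was -1.6 after adjustment, but -0.66 in a fit on length and level. Bst2, which encodes the virus-retaining protein tetherin, had 332 against 984, 2.96-fold lower (2.63 to 3.34). Its log2 ratio of -1.56 became -0.51 after adjustment and 0.12 against the median of its length group. Ifitm3, an inhibitor of virus fusion, was under the floor at 50.3 and 90.1. Rtp4, a receptor transport protein, was under the floor with 81 reads against 7, 5.65-fold (2.62 to 14.5), and its length-adjusted log2 ratio of 3.05 was past 2-fold too. Lgals3bp, a secreted glycoprotein, had 160 against 93, 1.72-fold higher (1.3 to 2.3).

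The remaining members included both ends of the range. Slfn5 (chromosome 11, 82951349 to 82964840, plus strand), a Schlafen family gene, had 319 reads in the mutant-labelled library and 2 in the wild-type-labelled one. That was 223 against 2.86 normalized reads, a 77.9-fold ratio with a wide interval (21.4 to 646). The antisense gene Slfn5os overlaps 8.84% of its exon bases. Slfn2, its relative that keeps T cells quiescent in the mouse, had 2034 against 3906, 1.92-fold lower (1.82 to 2.02), and its log2 ratio of -0.94 became -0.32 after adjustment. Ifi35 had 1219 against 4140, 3.4-fold lower (3.2 to 3.61), and Ifi27 had 694 against 2177, 3.14-fold lower (2.89 to 3.4). Both are short, at 1727 and 1467 bases, and their log2 ratios of -1.76 and -1.65 became -1.17 and -0.94; Ifi35 was within 2-fold against its length group, at -0.91. Xaf1, a pro-apoptotic gene, had 252 and 292, a ratio of 0.862 (0.724 to 1.03) whose sign turned when scaled to total reads. Ifi44 had 5 reads against 0, too few for a fold.

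Per length, the order of the members changed between the libraries. Division by length within a library does not remove the length trend between libraries, so these ranks still hold it. After adjustment Samhd1 and Sp100 were each at -0.51 on the log2 scale, while Irgm2 (3.28) and Slfn5 (5.56) stayed past 2-fold. In the wild-type-labelled library Ly6e was followed by Ifi35, Slfn2, Ifi27, Bst2 and Samhd1, at 2397, 2347, 1484, 1288 and 1284 normalized reads per kilobase; with 1 library, only their counting error is known. In the mutant-labelled library Ly6e was followed by Samhd1 at 2151, Slfn2 at 1222 and Sp100 at 1075. Irgm2 stood 30th of the 43 in the wild-type-labelled library and 20th in that labelled Cbl-/-Cblb-/-, and Slfn5 42nd and 29th.

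A division by level, at a mean of 500 normalized reads, was chosen after the values were seen. Of the 27 members under it, 22 had a positive log2 ratio, against 10561 of all 19179 genes with a read, whatever their mean. Of the 17 of these members past the floor, 11 were at least 2-fold higher and none lower. Of the 11, 8 reached the floor only through the mutant-labelled library. As the floor is set on the higher library, it favours large ratios of either direction near it, for members and all genes alike. Among all 3010 genes at that level past the floor, 33.6% were higher and 21.8% lower. Of the 16 members above it, 3 were at least 2-fold higher, Gbp3, Parp14 and Dtx3l, and 5 at least 2-fold lower, against 25.4% and 23.9% of 7433 genes. After adjustment for length, 11 of the 17 were higher and 0 lower (28.9% and 17.8% of all genes at that level), while 1 of the 16 was higher and 2 were lower (13.7% and 22.7%).

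Members with and without a response element core overlapped in ratio. The 14 with a core ran from -1.56 (Bst2) to 5.86 (Slfn5) on the log2 scale, with a median of 1.51, and 11 were above 0. The 17 without one ran from -1.76 (Ifi35) to 2.94 (Ifit2), with a median of 0.74, and 11 were above 0. Of all 19179 genes with a read, 10561 were above 0. The length-adjusted medians were 1.28 and 0.46. All these medians include members under the floor, which 11 of the 14 and 14 of the 17 passed. Of those with a core, Oas3, Gbp7, Irgm2 and Slfn5 passed only through the mutant-labelled library, and Oas1a only through the wild-type-labelled one. Of those without, Ifit2, Oasl2, Cmpk2 and Lgals3bp passed only through the mutant-labelled library. The 12 members with no promoter in the table ran from -1.65 to 2.84.

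Other genes of the interferon response were read the same way. Of 63 other induced genes in the table, 44 passed the floor; 14 of these (31.8%) were 2-fold or more higher in the mutant-labelled library and 4 (9.09%) as much lower, with a median log2 ratio of 0.55. The share higher is near the 27.8% of all genes, and the share lower is below their 23.3%. After adjustment for length 12 were higher (27.3%) and 5 lower (11.4%), against 18.1% and 21.3% of all genes, and the median was 0.2. The highest past the floor were 2 Schlafen genes, Slfn9 (108 against 11.4 normalized reads, 9.47-fold, 4.69 to 22.3) and Slfn3 (301 reads against 20, 7.35-fold, 4.68 to 12.2). Next came the histone methyltransferase gene Setdb2 (1098 against 179, 6.14-fold, 5.12 to 7.43) and a further guanylate-binding gene, Gbp5 (228 against 38.6, 5.9-fold, 3.98 to 9.09). Slfn9, Slfn3 and Gbp5, and also Tdrd7 and Usp18, reached the floor only through the mutant-labelled library. They had to differ or lie near the floor, so the counts of this list only describe it. The lowest were the immunoproteasome genes Psmb10 (2838 against 14872, 5.24-fold lower, 5.05 to 5.44) and Psmb8 (11860 against 43996, 3.71-fold lower, 3.64 to 3.78), with Ifi27l2a (4.44-fold lower) and Oas1c (2.49-fold lower); the last 2, at -0.95 and -0.99 on the log2 scale after adjustment, were then within 2-fold. Under the floor, the helicase gene Ddx60 was listed with 53 reads and 0. With 3 reads in place of the 0 its ratio was 8.63-fold, and the lower limit of its interval was 6.78. The GTPase gene Tgtp2, also under the floor, had 92 reads against 2, a 22.5-fold ratio of normalized reads (6.05 to 188).

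Among 39 interferon signalling and sensing genes, 29 were past the floor, 8 (27.6%) at least 2-fold higher and 2 (6.9%) lower, with a median log2 ratio of 0.56 and of 0.54 after adjustment. Before adjustment the share higher is near that of all genes (27.8%), and 23.3% of all genes were lower. After adjustment for length 8 (27.6%) were higher and 3 (10.3%) lower, against 18.1% and 21.3% of all genes. None of the 8 interferon ligand genes listed had more than 3 reads in a library; Ifnb1, Ifna2, Ifna4, Ifne, Ifnl2 and Ifnl3 had 0 in both, and a count of 0 allows up to 2.1 and 4.29 normalized reads. The type I receptor genes Ifnar1 (1283 and 983) and Ifnar2 (380 and 286) were 1.31-fold (1.2 to 1.43) and 1.33-fold higher (1.13 to 1.57), and Ifngr1 (1833 and 1378) 1.33-fold (1.24 to 1.43). After adjustment their log2 ratios of 0.38, 0.41 and 0.41 were -0.26, 0.42 and 0.58, so that of Ifnar1, a gene of 5879 bases, changed sign. The factor genes Stat2 (3450 and 2160) and Irf9 (2009 and 1225) had ratios of 1.6 (1.51 to 1.69) and 1.64 (1.52 to 1.77), and their log2 ratios of 0.68 and 0.71 were 0.38 and 0.18 after adjustment. The highest ratios were those of the endosomal DNA sensor gene Tlr9 (2938 against 68.7, 42.8-fold, 32.2 to 58.1), the adaptor gene Traf3 (3.38-fold), the kinase gene Jak1 (2.86-fold) and the receptor gene Il10rb (2.84-fold). After adjustment Tlr9 (5.36) and Il10rb (1.37) were still past 2-fold on the log2 scale, whereas the long genes Traf3 (0.82) and Jak1 (0.6) were not. Tlr9 and, of the other signalling genes called higher, Ifnlr1 reached the floor only through the mutant-labelled library. The lowest were Irf3 (3421 against 10451), Irf7 (1120 against 2396) and Ikbke (449 against 840), whose log2 ratios of -1.61, -1.1 and -0.9 were -1.56, -0.99 and -2.13 after adjustment.

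**Figure D5:**
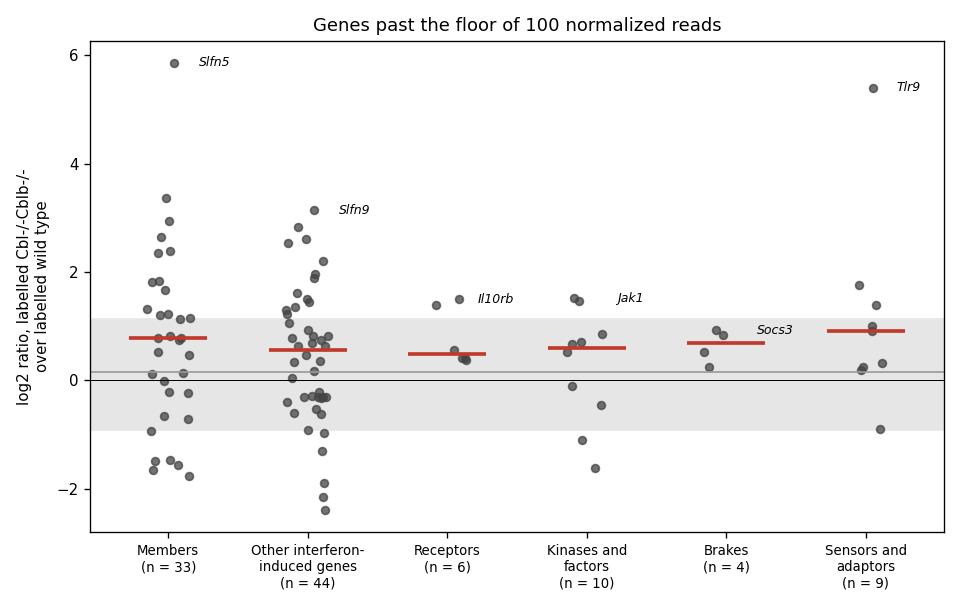
log2 ratio (y axis, library labelled Cbl-/-Cblb-/- over that labelled wild type) of the genes past the floor in each list (points), with the list median (red bars); grey marks the middle 50% and the median of all genes past the floor. The list medians, from 0.48 for the receptors to 0.92 for the sensors and adaptors, lie above the median of 0.15 for all genes.

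The p-values of the authors' deposited table come from 1 library a genotype. Of the 43, the authors' deposited table gives 2 genes an unadjusted p under 0.05, Slfn5 (log2 fold change 3.0, p = 0.00748) and Irgm2 (2.25, p = 0.0343). Over all 19179 genes with a p in the authors' deposited table, 2.66% were under 0.05, 511 in all, and 0 by the adjusted p. The smallest adjusted p of the 43 in the authors' deposited table was 0.944.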

How the data were processed

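Libraries were Illumina TruSeq, sequenced as paired reads of 50 bases, per the labels' protocols. TopHat2 2.0.10, DESeq2 1.4.5, featureCounts and GRCm38 are named in the submitters' processing notes; annotation release and strand setting are not given in the sources used here. Signal columns deposited by the authors hold normalized read counts, per the file headers; 100% of values were whole multiples of the smallest value of their library (tolerance 0.001 read), which recovered whole reads. The base mean signal and FPKM values deposited by the authors, per the file headers, were used to choose rows and in a check. The log2 fold changes, the score of the test and the p-values deposited are the authors' own, from 1 library a group. Count tests were left out, since each group holds 1 library.

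Ratios were log2 of normalized reads plus 1, kept where either library reached 100 normalized reads, and called from 2-fold. Intervals (95%, exact, SciPy 1.17.1) cover counting error only. The length adjustment is a linear fit on log2 length and its square over 10443 genes, tested on simulated data. Positions, overlaps and 50-base windows shared between genes came from GENCODE M21, promoters from RefSeq. All members were described by role; those whose interval lay past 2-fold, the most abundant of each role and those at 0 were named in full, as were the 4 highest and lowest of each other list, except 1 gene that is not reported here. Members and lists were chosen with earlier results of these data known. Of the other induced genes listed, 63 were in the table.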

Additional observations from a re-analysis of the deposited data

How the results depend on the processing

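No paired analysis was possible because each group holds 1 library. The counts and median of the members stayed within 1.5 times of those reported with pseudocounts of 0.5 and 10, a floor of 20, a mean of at least 100 in both libraries, centring, and rows of a symbol summed. Scaling to total reads moved the median of all genes from 0.15 to 0.7, with 41.9% of all genes higher and 13.7% lower. It gave 20 members higher and 3 lower, and a member median of 1.3 (1.29 without immunoglobulin genes). Of the other induced genes 22 were then higher, and of the signalling genes 17 were higher and 1 lower. Without a floor 22 members were higher, with a median of 1.13, and 22 other induced genes, where 28.6% of all genes were higher. At 1.5-fold 8 members were lower, 22 other induced genes higher and 8 lower, and 14 signalling genes higher. Of all genes 38.6% were then higher and 31.9% lower. The length fit gave 2 members lower and a median of 0.46, with 21.3% of all genes lower. Less the median of the length group it was 1 lower and 0.43, with 4 signalling genes and 18.2% of all genes lower. Parp14 turned to -0.05, -0.13 and -0.16 with the length fit, the length group and a fit on length and GC content, and Bst2 to 0.12 with the length group. Fits added after the data were seen gave, on length and level, 9 members higher and 0 lower, a median of 0.38 and 9 other induced genes higher, and on length and GC content 1 member lower and a median of 0.36. On length and level Irgm1 (0.89), Oas3 (0.69), Oasl2 (0.39), Ifi35 (-0.91) and Ly6e (-0.66) were within 2-fold. The cause of these shifts was not tested beyond the construction of each setting. Depth limits the members with under 50 reads in the library labelled wild type, such as Slfn5 and Rsad2, whose intervals span several-fold.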
